A study of Mus musculus with 30 samples.

Results

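The genes described here encode the nuclear subunits of respiratory complexes II to V and cytochrome c, measured in mouse quadriceps muscle. They were chosen by symbol, with earlier results of these data known. The rule took every entry named Sdha, Sdhb, Sdhc, Sdhd, Cyc1 or Cycs, or with a symbol that begins with Uqcr, Cox4i, Cox5, Cox6, Cox7, Cox8 or Atp5. That rule found 40 of the 16475 entries on the array: 4 for complex II, 7 for complex III, 1 for cytochrome c, 16 for complex IV and 12 for complex V. RNA from 30 male mice, 1 mouse per array, was measured in 3 groups of 10. All mice had eaten a low fat run-in diet for 3 weeks from the age of 9 weeks. The LF day 0 mice were killed at the end of that run-in, at 12 weeks of age. The LF day 56 mice stayed on the low fat diet and the HF day 56 mice received a high fat diet, both for 56 days to an age of 20 weeks. The strain is spelled C56BL/6J in the sample labels and C57BL/6J in the series text. The series was set up to relate diet-induced obesity to the muscle transcriptome.

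In the inner mitochondrial membrane, complex II passes electrons from succinate to ubiquinone, complex III passes them on to cytochrome c, and complex IV passes them to oxygen. Complexes III and IV pump protons as they do so, and complex V, the ATP synthase, uses the proton gradient to make ATP. Muscle fibres are dense in these complexes, and complex IV has subunits that exist in a form typical of heart and muscle and a form made in most tissues. Some subunits of complexes III, IV and V come from mitochondrial DNA: 0 of the 10 mitochondrially encoded genes that were listed had an entry, so only nuclear genes are described.

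Values are GCRMA intensities on a linear scale, and differences are on a log2 scale. An intensity of 20 served as the mark for a signal above background, and 34 of the 40 subunit genes exceeded it on at least 5 arrays, in each case on all 30 arrays. The other 6 did so on no array: Cycs, Cox4i2, Cox6b2, Cox7b2, Cox8c and Atp5g1. Probe sets differ in brightness, so levels are compared only within a gene. The arrays held between 6334 and 6563 entries above 20, and skeletal muscle markers were high in every group. The marker Ckm, the muscle creatine kinase, had median intensities of 21309, 21186 and 21335 in LF day 0, LF day 56 and HF day 56. In whole muscle, fewer cells of a type and less RNA per cell cannot be told apart.

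Other cell types and fibre types differed between arrays. A score for each was the mean log2 intensity of its markers, and its ranges are given for LF day 0, LF day 56 and HF day 56. For neutrophils (9 of 10 listed markers measured) they were 2.25 to 8.52, 2.16 to 6.14 and 2.14 to 9.29. For slow fibres (8 of 9 measured) they were 4.97 to 9.18, 4.66 to 9.68 and 4.43 to 9.11. For adipocytes (8 of 9 measured) they were 6.27 to 7.20, 6.54 to 7.63 and 6.29 to 8.30. Of 5 measured markers of brown fat, Ucp1 and Cidea lay above 20 only on replicate 6 of LF day 56 (228.5 and 204.1). The others, Dio2, Elovl3 and Zic1, stayed below 20 on every array, with highest values in LF day 56 of 4.2, 5.2 and 12.8. The arrays also formed 2 labelling sets of 21 and 9, told apart by how far the 5' end of the control RNAs added before labelling was read relative to the 3' end (the widest gap between arrays), and the smaller set held 3 arrays of each group. No label names these sets, and what they correspond to is not known.

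No subunit gene passed the test for a difference with the high fat diet, and the intervals around the differences were narrow. At 56 days, between the high fat and the low fat group, 0 of the 40 genes passed limma's test at an adjusted p of 0.05, where 0.0243% of all entries did (4 of 16475). At an unadjusted p below 0.05 there were again 0 of 40, against 5.1% of all entries. The median difference was 0.015, beside 0.0029 for all entries, and 23 of the 40 genes were higher. The 34 genes above background differed by between -0.07 and 0.08. Their 95% intervals all lay within 1.2-fold in either direction, a width that 61.1% of the 6844 entries above background met, and for 18 of the 34 within 1.1-fold, met by 12.3%. The farthest bound was 1.17-fold, for Sdhc. These genes had small standard errors, with a median of 0.049 against 0.083 over the 6844 entries. Those entries were not matched to the subunit genes in brightness.

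Time on the low fat diet, with the ageing that went with it, gave no subunit gene past the test either. In LF day 56 against LF day 0, where time and age cannot be told apart, 0 of 40 genes passed and 0.85% of all entries did. Unadjusted p-values below 0.05 were found for 2 of 40 genes, Cox7a1 and Atp5mpl, against 10.1% of all entries. The median difference was 0.0075 against 0.0009 for all entries, with 22 genes higher. Intervals lay within 1.2-fold for 33 of the 34 genes above background (53.6% of entries) and within 1.1-fold for 19 (9.76%), and the exception was Cox6a1, with a bound at 1.23-fold.

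In HF day 56 against LF day 0, which shares its arrays with the other comparisons, 0 of 40 genes passed and 1.59% of all entries did. At an unadjusted p below 0.05 there were 2 of 40, Uqcrh and Atp5g1, against 11% of entries. The median difference was 0.0089 beside 0.0024, with 24 genes higher. All 34 intervals lay within 1.2-fold (53.5% of entries) and 18 within 1.1-fold (8.87%). The lowest adjusted p of any subunit gene was 0.991 in the diet comparison, 0.189 in the time comparison and 0.316 in the combined one.

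**Figure D1:**
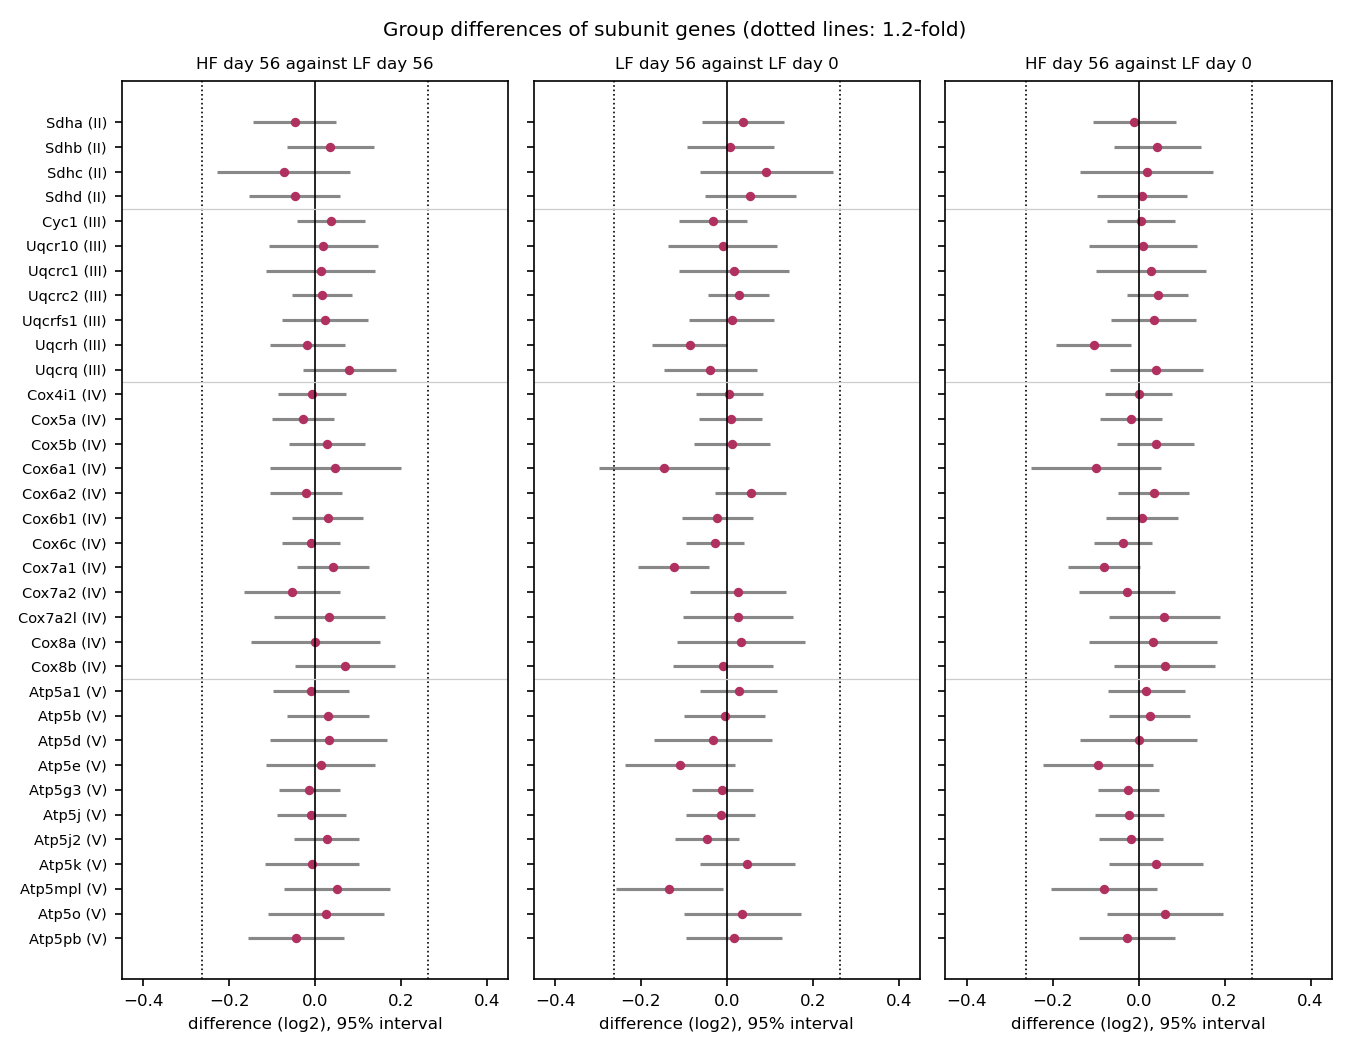
Fitted log2 differences (points) and 95% intervals (bars) of the 34 subunit genes above background in 3 comparisons, grouped by complex, with dotted lines at 1.2-fold. The points lie between -0.07 and 0.08 in the diet comparison, and only Cox6a1 in the time comparison has an interval that crosses a dotted line.

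By complex, the median differences were all small. In the diet comparison they were -0.05 for complex II, 0.02 for complex III, 0.03 for complex IV and 0.0028 for complex V. The time comparison gave 0.05, -0.0094, 0.0080 and -0.01, and the combined one 0.01, 0.03, 0.03 and -0.02. With the genes below background left out, complex IV had 0.01, 0.0075 and 0.0038 and complex V 0.01, -0.01 and -0.02 in the diet, time and combined comparisons. The corresponding medians over all entries were 0.0029, 0.0009 and 0.0024.

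Complex II is made of 4 subunits, all encoded in the nucleus and all measured well above background. Sdha, the flavoprotein that oxidises succinate, had a lowest, median and highest intensity of 3400.0, 3926 and 4471 in LF day 0. At day 56 these were 3844, 4110.45 and 4332 on the low fat and 3610.3, 3959 and 4286 on the high fat diet. The 3 ranges overlapped throughout, and the diet difference was -0.05 ± 0.05 (SE; limma adjusted p = 0.998). Sdhb, the iron-sulphur subunit, had group medians of 7354, 7318 and 7292, and its widest range was that of HF day 56, from 6534 to 8827. Its combined difference was 0.04 (limma adjusted p = 0.849). Sdhc and Sdhd are the membrane anchors where ubiquinone is reduced. Sdhc ran from 2458 through 3246 to 3688 in LF day 0, from 2864 through 3345 to 3723 in LF day 56 and from 2532 through 3271 to 3846 in HF day 56. It was the most variable of the 4, with a diet difference of -0.07 ± 0.08 (adjusted p = 0.998) and a time difference of 0.09 ± 0.08 (adjusted p = 0.748) in limma's fit, and 0.02 in the combined comparison. Sdhd had medians of 1717, 1730.35 and 1713, and a time difference of 0.06 ± 0.05 (limma adjusted p = 0.794).

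The promoters of Sdha and Sdhd are printed because both hold matches to NRF1, a factor known for its sites in respiratory chain genes. Between arrays, with group and labelling set removed, Sdha correlated with Sdhd at 0.68 and with Uqcrfs1 at 0.86. Uqcrfs1 has no match in its 250 bases. Whether matches go with such correlations was not tested. The sequences are the 250 bases before the RefSeq start site in GRCm38.p6, 5' to 3' on the gene's strand, with capitals at matches to the motifs searched. Sdha lies on the minus strand at chr13:74350241-74350490 with 3 NRF1 matches, and Sdhd on the minus strand at chr9:50603850-50604099 with 1 NRF1 and 1 GABP match.
Sdha: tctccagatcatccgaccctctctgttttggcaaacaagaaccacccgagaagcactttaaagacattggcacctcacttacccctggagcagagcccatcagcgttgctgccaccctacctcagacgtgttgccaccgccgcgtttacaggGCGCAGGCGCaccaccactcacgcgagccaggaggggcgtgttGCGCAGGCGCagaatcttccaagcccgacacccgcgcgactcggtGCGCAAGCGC
Sdhd: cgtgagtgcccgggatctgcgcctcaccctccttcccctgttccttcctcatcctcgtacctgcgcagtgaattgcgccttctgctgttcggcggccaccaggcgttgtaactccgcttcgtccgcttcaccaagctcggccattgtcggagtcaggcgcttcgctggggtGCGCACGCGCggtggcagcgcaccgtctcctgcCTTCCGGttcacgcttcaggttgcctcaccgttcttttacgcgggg

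Motifs were searched on both strands in windows from 250 bases before to 50 after the start, and 29 of the 40 subunit genes had such a window. NRF1 (GCGCA, any base, GCGC) matched in 7 of the 29 (24.1%), against 5.19% of all 27025 genes with a window and 13.3% of the 5497 whose entries were above background. GABP (CCGGAAG) matched in 9 (31.0%), against 9.93% and 22.3%. The oestrogen-related receptor motif (TCAAGGTCA) matched in 2 (6.9%), against 0.47% and 0.29%, and YY1 (ATGGCGGC) in 0, against 2.6% and 6.8%. The muscle motifs MEF2 (CTA, any 4 bases, TAG) and E-box (CAGCTG) matched in 1 (3.45%) and 2 (6.9%), against 4.23% and 18.3% of all genes and 3.95% and 17.5% of those above background. No match overlapped another in the printed sequences, and a match describes the letters only.

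Complex III had 7 measured genes. Uqcrh, the acidic hinge protein that assists the docking of cytochrome c, had the smallest p of the complex in 2 of the 3 comparisons. Its lowest, median and highest intensities were 6040.4, 6553 and 7496 in LF day 0. At day 56 these were 5887, 6228 and 6638 on the low fat and 5731, 6066 and 6984 on the high fat diet. The later groups lay lower but overlapped LF day 0. The time difference was -0.09 ± 0.04 (SE; limma adjusted p = 0.502), lower on 9 of 10 arrays, and the combined difference was -0.10 ± 0.04 (limma adjusted p = 0.316). Uqcrq, a small accessory subunit, had the largest diet difference of the complex, 0.08 ± 0.05 (limma adjusted p = 0.998). Its intensities ran from 409.7 to 521.9 in LF day 56 and from 439.7 to 544.5 in HF day 56. Cyc1, cytochrome c1, which hands electrons to cytochrome c, had medians of 6328, 6069.85 and 6286, with a time difference of -0.03 ± 0.04 (limma adjusted p = 0.867).

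Uqcrc1 and Uqcrc2 are the core proteins on the matrix side, and Uqcrfs1 is the Rieske iron-sulphur protein that takes electrons from ubiquinol. Uqcrc2 had the smallest SE of the complex, with medians of 6529, 6682 and 6763 and a diet difference of 0.02 ± 0.03. Its combined difference was 0.04 ± 0.03 (limma adjusted p = 0.725). Medians were 4028, 4069 and 4142 for Uqcrc1, 5449.75, 5645 and 5604 for Uqcrfs1, and 3069, 3039.9 and 3089 for the small subunit Uqcr10, in the order LF day 0, LF day 56 and HF day 56. Cycs, the somatic cytochrome c, stayed at or below 6.0 on all 30 arrays, under the background mark, so its differences (-0.07 ± 0.05 for diet, limma adjusted p = 0.998, and -0.06 combined) say nothing of its level in muscle.

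Complex IV had 16 measured genes, of which 12 were above background. The 4 below it were Cox4i2, known from lung, and Cox6b2, Cox7b2 and Cox8c, known as testis forms. Their highest intensity on any array was 3.7, 7.3, 3.6 and 4.5, in that order. Differences of Cox4i2 (0.11 ± 0.06 for diet, adjusted p = 0.991) and Cox8c (0.10 ± 0.06 for diet, adjusted p = 0.998, and 0.12 ± 0.06 combined, adjusted p = 0.476, limma) lie at these signals. Cox4i1, the regulatory subunit of most tissues, had medians of 9698, 9626 and 9714. Cox5a and Cox5b, which cover the catalytic core on the matrix side, had medians of 9279, 9402 and 9186, and of 11040.25, 10954 and 11013. Cox6b1, which sits on the intermembrane side of the dimer, had 11246, 10759 and 11059, and Cox6c 7434, 7260.5 and 7273. Cox7a2l, which takes part in joining complexes III and IV into supercomplexes, had medians of 83.3, 85.1 and 82.1.

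The subunit pairs with a muscle and a ubiquitous form allowed a comparison within each array. In the Cox7a pair the balance between the forms differed with time on the low fat diet. Cox7a1, the heart and muscle form, had a lowest, median and highest intensity of 5410.0, 5642 and 5994 in LF day 0. At day 56 these were 4637, 5174 and 5731 on the low fat and 4756, 5386 and 5725 on the high fat diet. It was lower on 8 of 10 LF day 56 arrays than the LF day 0 mean, by -0.12 ± 0.04 (SE; limma p = 0.00492, adjusted p = 0.189), and did not pass over all entries. The combined difference was -0.08 ± 0.04 (limma adjusted p = 0.468). Cox7a2, the ubiquitous form, had 6118, 6959 and 7624, then 5413, 7095 and 7391, then 5871, 6733 and 7224, a time difference of 0.03 ± 0.05.

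The log2 ratio of Cox7a1 over Cox7a2 averaged -0.26 ± 0.09 (SD, n = 10) in LF day 0, -0.41 ± 0.09 in LF day 56 and -0.31 ± 0.12 in HF day 56. The ranges were -0.35 to -0.12, -0.49 to -0.22 and -0.42 to -0.09, so the groups overlapped. The ratio fell by 0.15 from LF day 0 to LF day 56, with 9 of 10 arrays below the LF day 0 mean (two-sided permutation test of 100000 resamples, p = 0.00182, adjusted p = 0.0164 over 9 tests). HF day 56 exceeded LF day 56 by 0.10 (permutation p = 0.0518, adjusted p = 0.155) and differed from LF day 0 by -0.05 (permutation adjusted p = 0.47). Cox7a2 itself read lower in the smaller labelling set, and the ratio was therefore also taken by set. In the larger set it went from -0.30 in LF day 0 to -0.43 in LF day 56, and in the smaller from -0.16 to -0.35. With labels permuted within sets the adjusted p was 0.00135.

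Several marker lists moved beside this ratio, with no marker past limma's test in the time comparison. From LF day 0 to LF day 56, 9 of 9 neutrophil and 5 of 5 red cell precursor markers were lower (median differences of -2.05 and -0.18), and 8 of 8 slow fibre and 8 of 8 adipocyte markers were higher (0.66 and 0.45). The neutrophil score had medians of 5.72, 2.32 and 5.08 in the 3 groups, the slow fibre score 6.61, 8.48 and 8.20, the adipocyte score 6.39, 6.83 and 7.30 and the red cell precursor score 3.58, 2.46 and 3.69. S100a8, a calcium-binding protein of neutrophils, had medians of 846, 7.95 and 556. With the neutrophil score as a covariate the time difference of the ratio was -0.12, with a permutation adjusted p of 0.0848. With the slow fibre score it was -0.16 (0.00792) and with the adipocyte score -0.17 (0.0204). The part of the red cell precursor markers was not tested. Pairing arrays by replicate number, which the labels do not call for, gave a permutation adjusted p of 0.105.

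The Cox6a pair gave no difference past the threshold. Cox6a2, the muscle form, had medians of 8184, 8481 and 8420, and Cox6a1, the ubiquitous form, had 2122, 1928 and 2081. The time difference of Cox6a1 was -0.15 ± 0.07 (limma adjusted p = 0.513). Its log2 ratio, Cox6a2 over Cox6a1, averaged 1.91 ± 0.15, 2.12 ± 0.20 and 2.05 ± 0.17 (SD, n = 10). The time difference of 0.20 had a permutation adjusted p of 0.0934, and the diet difference of -0.07 had 0.639. By labelling set, the mean ratio in LF day 0 and LF day 56 was 1.92 and 2.03 on the larger set and 1.91 and 2.32 on the smaller. Replicate 6 of LF day 56, the array with raised Ucp1 and Cidea, had the lowest ratio of its group, 1.66. Without that array the time difference was 0.25, past the threshold (permutation adjusted p = 0.0099). This was the lowest value when each array was left out in turn, and the highest was 0.173. The array was singled out after its value was seen, and whether it hides a difference was not tested. With the adipocyte score as a covariate the time and combined differences were 0.30 and 0.26 (permutation adjusted p = 0.0204 and 0.0316), and with the neutrophil score the time difference was 0.14 (0.22).

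In the Cox8 pair, Cox8b, the muscle form, had medians of 9204, 9357 and 9577, while Cox8a, the ubiquitous form, was read only at 32.2, 31.7 and 32.1. The log2 ratio of Cox8b over Cox8a averaged 8.20 ± 0.16, 8.16 ± 0.21 and 8.23 ± 0.25 (SD, n = 10). Its 3 differences of 0.07, -0.04 and 0.03 had permutation adjusted p-values between 0.649 and 0.769. Relative to LF day 0 the labelling sets went opposite ways, with means of 8.22, 8.09 and 8.16 in LF day 0, LF day 56 and HF day 56 on the larger set and of 8.15, 8.30 and 8.38 on the smaller. The promoters of a ubiquitous and a muscle form, from different pairs, are printed as examples with unequal matches. Cox6a1 lies on the minus strand at chr5:115348959-115349208 and has 2 NRF1 matches and 1 GABP match in capitals. Cox7a1 lies on the plus strand at chr7:30183921-30184170 and has no match to any motif searched in these 250 bases. The ubiquitous forms Cox7a2 and Cox8a had no match in their 250 bases either, and the muscle form Cox8b had 1 E-box match. Cox6a2, the muscle form of the Cox6a pair, had no window. Among the forms with a window, matches in these 250 bases did not divide muscle from ubiquitous forms.
Cox6a1: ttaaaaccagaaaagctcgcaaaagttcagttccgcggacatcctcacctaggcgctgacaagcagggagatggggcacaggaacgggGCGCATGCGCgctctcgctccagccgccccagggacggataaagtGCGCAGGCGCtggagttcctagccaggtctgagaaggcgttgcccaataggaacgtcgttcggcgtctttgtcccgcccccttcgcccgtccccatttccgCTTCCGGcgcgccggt
Cox7a1: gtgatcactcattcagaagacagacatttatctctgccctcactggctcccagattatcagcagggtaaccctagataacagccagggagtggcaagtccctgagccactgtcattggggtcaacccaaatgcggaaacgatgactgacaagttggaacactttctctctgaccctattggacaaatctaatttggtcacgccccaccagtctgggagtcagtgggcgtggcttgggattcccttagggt

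**Figure D2:**
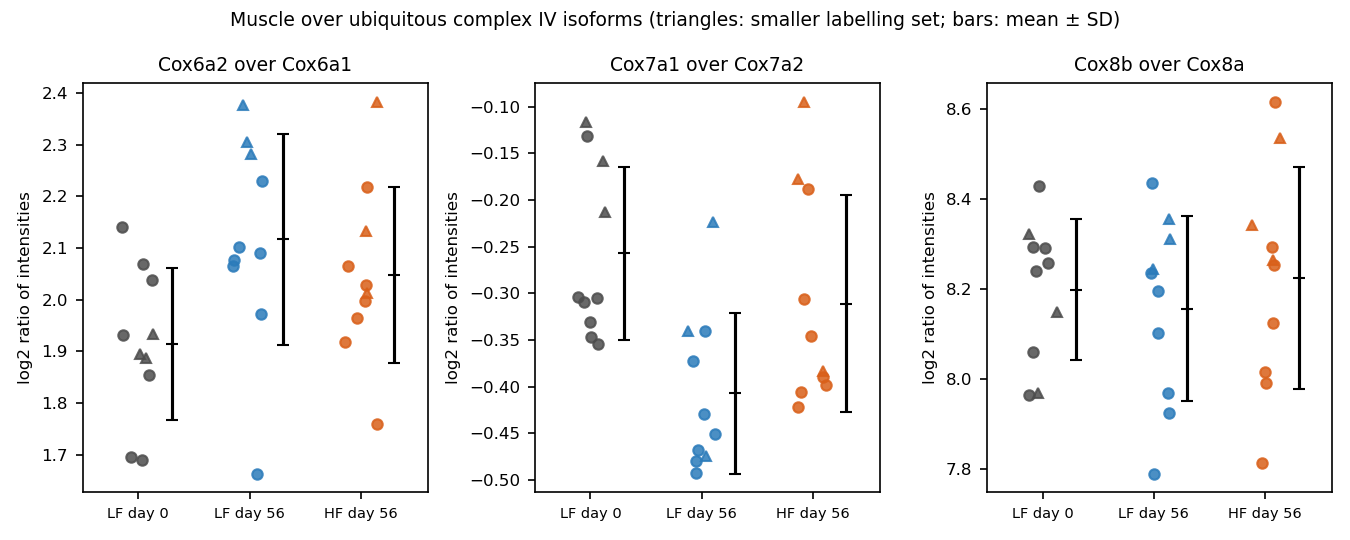
Log2 ratio of the muscle over the ubiquitous form of 3 complex IV subunits on each array, by group, with the mean and SD (n = 10) beside the points and triangles for the smaller labelling set. Cox7a1 over Cox7a2 is lowest in LF day 56 (-0.41 ± 0.09), and all groups overlap.

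Complex V had 12 measured genes and 11 above background. The catalytic head is built of alpha (Atp5a1) and beta (Atp5b) subunits. Atp5a1 had medians of 8875, 8997 and 8919, and Atp5b 8788, 9080 and 9053. The central stalk subunits Atp5d (delta) and Atp5e (epsilon) had medians of 2873, 2827 and 2973, and of 5452, 4876 and 5020.5. Atp5e ran from 4579.9 to 5782 in LF day 0 and from 4332 to 5634 in LF day 56, a time difference of -0.11 ± 0.06 (SE; limma adjusted p = 0.584). The combined difference was -0.10 ± 0.06 (limma adjusted p = 0.645). In the peripheral stalk, which holds the head still, Atp5o had medians of 3024, 2969 and 3180.4, Atp5pb 5291, 5372 and 5256, and Atp5j 6659, 6679 and 6544.

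The ring that turns with the proton flow is made of c subunits, for which several genes encode one mature peptide. Atp5g3 had medians of 10066, 10037 and 9915, and the SE of its differences was 0.03. Atp5g1 never exceeded 13.7, so its diet difference of -0.12 ± 0.14 (limma adjusted p = 0.998) and its combined difference of -0.30 ± 0.14 (limma adjusted p = 0.382) are differences between background signals. In the membrane part, Atp5mpl, a small proteolipid, had a lowest, median and highest intensity of 3137, 3666 and 4083 in LF day 0. At day 56 these were 3014, 3284 and 3472 on the low fat and 2882, 3411 and 4103 on the high fat diet. All 10 LF day 56 arrays lay below the LF day 0 mean though the ranges overlapped, and the time difference was -0.13 ± 0.06 (limma adjusted p = 0.443). The diet difference was 0.05 ± 0.06 (limma adjusted p = 0.998). The other membrane subunits Atp5j2 and Atp5k had medians of 7363, 7132 and 7248, and of 3940, 4066 and 4079. The promoter of Atp5g3 is shown because it holds a match to the oestrogen-related receptor motif, in capitals. It lies on the minus strand at chr2:73911327-73911576.
Atp5g3: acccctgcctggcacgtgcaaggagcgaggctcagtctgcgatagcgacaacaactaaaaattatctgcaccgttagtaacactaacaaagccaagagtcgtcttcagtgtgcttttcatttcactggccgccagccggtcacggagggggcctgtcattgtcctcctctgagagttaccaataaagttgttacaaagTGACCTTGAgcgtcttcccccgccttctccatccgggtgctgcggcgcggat

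The subunit genes varied together from array to array. With group and labelling set removed, the 561 pairs among the 34 genes above background had a median Pearson correlation of 0.37 over 30 arrays, from -0.69 to 0.90, and 78.6% of pairs were positive. All pairs among the 6844 entries above background had a median of 0.01, and pairs of a subunit gene with any other entry -0.0053. These correlations share arrays and normalization and are given as a description. The median was 0.27 with the group alone removed, 0.26 with the slow fibre and neutrophil scores removed as well, and 0.25 without replicates 2 and 9 of HF day 56, the arrays farthest from the median level of these genes. Within the larger and the smaller set alone it was 0.38 and 0.46. It was 0.32 with Spearman's correlation.

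Correlation within complex II was the highest, with a median of 0.58 over its 4 genes, against 0.35 with genes of the other complexes. Sdha correlated with Sdhc at 0.79 and with Sdhd at 0.68. Sdhb was less close to them, at 0.45 with Sdha, 0.30 with Sdhc and 0.49 with Sdhd. Its highest correlations were with genes of other complexes, Cox6b1 at 0.78 and Cyc1 at 0.77. Within complexes III, IV and V the medians were 0.31, 0.29 and 0.40, against 0.42, 0.37 and 0.40 with genes of the other complexes. Uqcrc1 (0.54), Cox4i1 (0.52) and Cox6b1 (0.49) had the highest median correlation with the other subunit genes. Several strong pairs crossed complexes: Atp5d with Cox8b at 0.90, Atp5e with Cox8b at 0.87, Sdha with Uqcrfs1 at 0.86, Cyc1 with Cox6b1 at 0.86. Cox5a and Cox7a2 stood apart, with medians of -0.18 each and a correlation of 0.72 with one another. Cox7a2 and Atp5b gave the lowest pair, at -0.69.

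**Figure D3:**
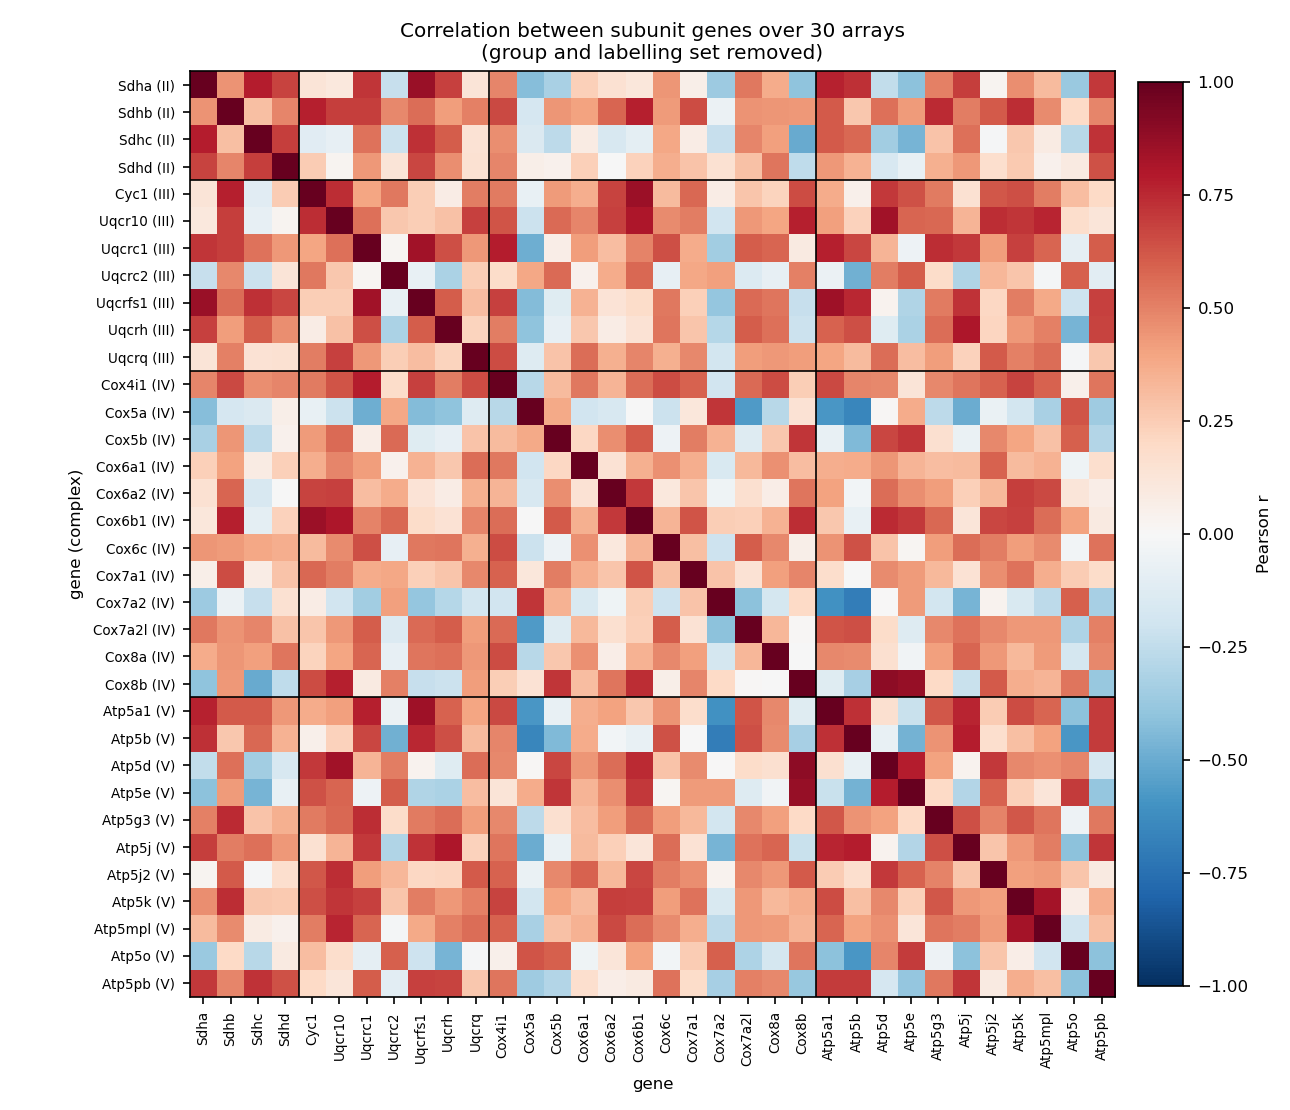
Pearson correlations between the 34 subunit genes above background over 30 arrays, after removal of group and labelling set, ordered by complex (lines). Most cells are positive (78.6% of pairs), and the rows of Cox5a and Cox7a2 are mostly negative. Pairs within complex II have a median of 0.58, with those of Sdhb between 0.30 and 0.49.

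The mean of the 34 genes was more spread over the arrays of the high fat group than over those of the low fat group at the same age, a difference in spread given without a test. It ranged from 11.84 to 12.09 (log2) in HF day 56, with an SD of 0.075, and from 11.92 to 12.00 in LF day 56, with an SD of 0.025. In LF day 0 it ranged from 11.91 to 12.02, with an SD of 0.044. The SD was larger in HF day 56 than in LF day 56 for 27 of the 34 genes (79.4%), and for 58.9% of the 6844 entries above background. It was also larger in LF day 0 than in LF day 56 for 20 of the 34 genes (58.8%), and for 54.3% of entries. The median SD of the single genes was 0.1003 in HF day 56, 0.0984 in LF day 0 and 0.0807 in LF day 56. By that median HF day 56 was close to LF day 0, and LF day 56 was the least spread group. Replicate 2 of HF day 56 was the highest array and replicate 9 the lowest. Replicate 2 also had the highest neutrophil score of its group, 9.29, with S100a8 at 4031, and the highest slow fibre score, 9.11. Replicate 9 had the lowest slow fibre score, 4.43, and the highest adipocyte score, 8.30. Without both arrays the SD of the mean was 0.052, and 23 of 34 genes (67.6%) were more spread in HF day 56, against 55.1% of entries.

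**Figure D4:**
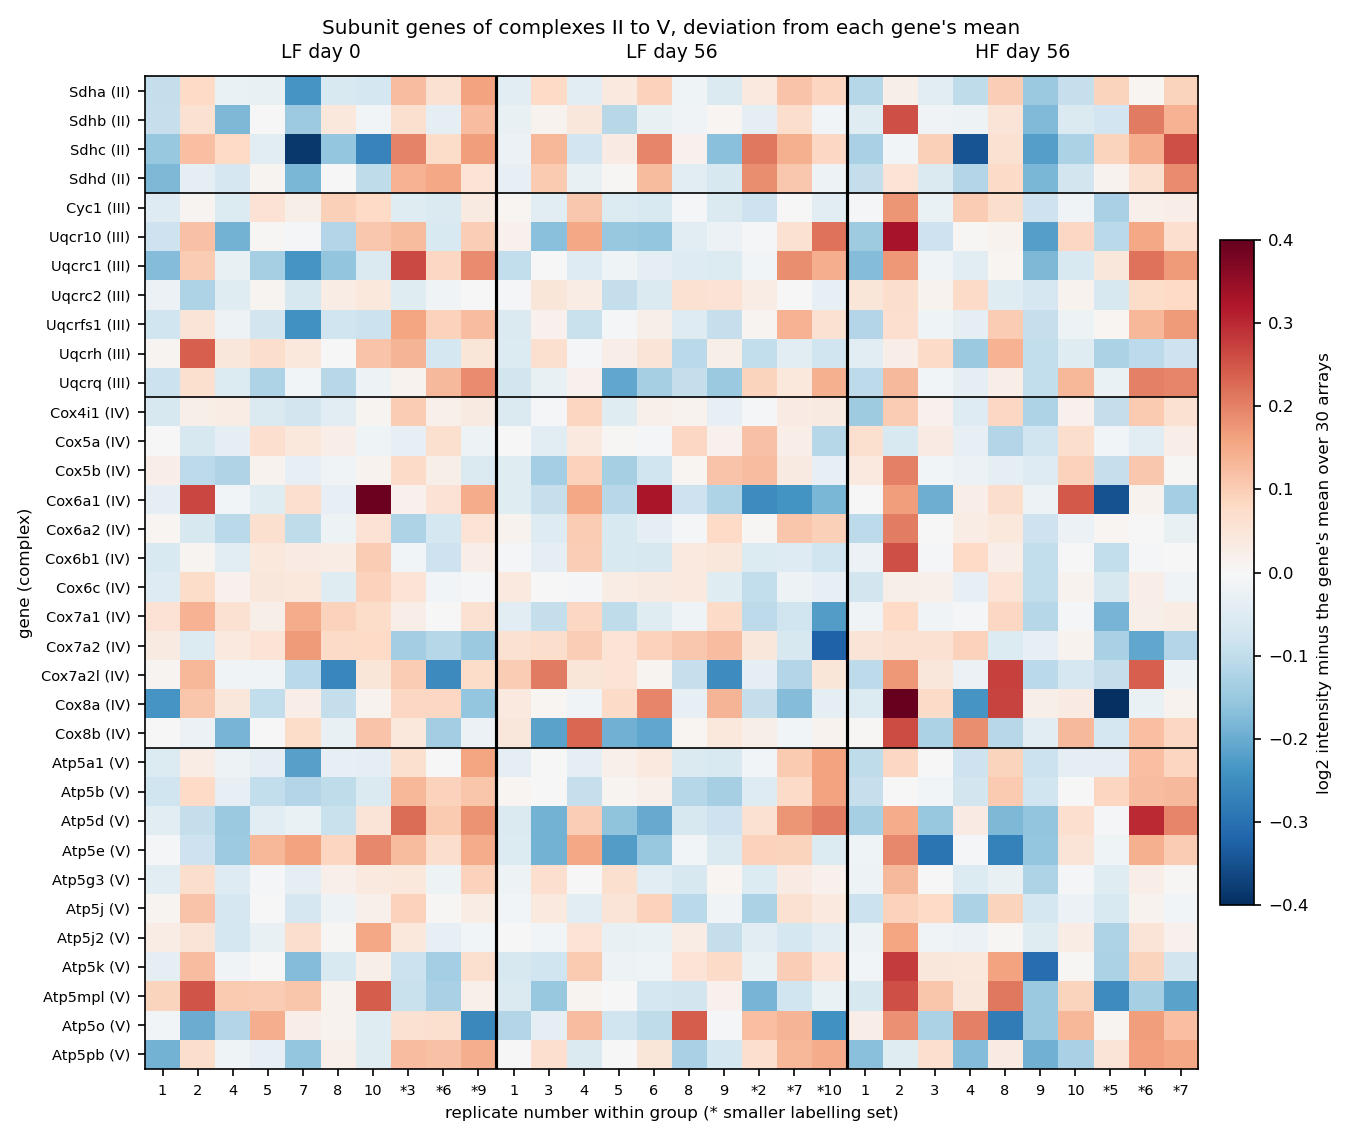
Log2 intensity of the 34 subunit genes above background on each array, minus the gene's mean over 30 arrays, with arrays in columns by group and asterisks for the smaller labelling set. Replicates 2 and 9 of HF day 56 form the warmest and one of the coolest columns, with mean levels of 12.09 and 11.84.

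Slopes of the subunit genes on the marker scores were mostly of one sign, though no gene passed. In a fit with group, labelling set and 1 score, 0 of 40 genes passed limma's test for the slow fibre score (0.467% of all entries and 0.95% of those above background did), with a lowest adjusted p of 0.135, for Sdhb. Slopes were positive for 32 of the 34 genes above background, and for 41.2% of entries above background. For the neutrophil score 0 of 40 passed (2.69% and 2.89%), with a lowest adjusted p of 0.12 for Uqcrc1, and 33 of 34 slopes were positive, against 44.1%. For the adipocyte score 0 of 40 passed (0.437% and 0.628%), and 8 of 34 slopes were positive, against 45.02%. The 34 genes are correlated with each other, so these shares are not counts of independent genes.

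More subunit genes differed between the labelling sets than between the groups. With group in the fit, 13 of 40 genes passed limma's test between the sets, 10 higher and 3 lower on the 9 arrays, against 23.1% of all entries. Among those above background, 12 of 34 passed, against 39.8% of entries. Cox7a2 ran from 5413 through 6203 to 6997 on the 9 arrays and from 6523 through 7067 to 7624 on the 21, a difference of -0.19 ± 0.03 (SE; limma adjusted p = 9.22e-05). Atp5mpl was the other gene above background that was lower, by -0.17 ± 0.04 (adjusted p = 0.00406, limma), and Atp5g1 differed at background (-0.33). Atp5d was higher, from 2932 through 3343 to 3625 against 2567 through 2787 to 3269, a difference of 0.23 ± 0.04 (limma adjusted p = 1.88e-04). Uqcrc1 (0.20 ± 0.04, limma adjusted p = 4.35e-04) and Sdhc (0.22 ± 0.06, limma adjusted p = 0.0041) followed. Sdha, Sdhd, Uqcrfs1, Uqcrq, Atp5a1, Atp5b and Atp5pb were higher by 0.10 to 0.18. Every range overlapped between the sets, and each set held the same number of arrays of the 3 groups.

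**Figure D5:**
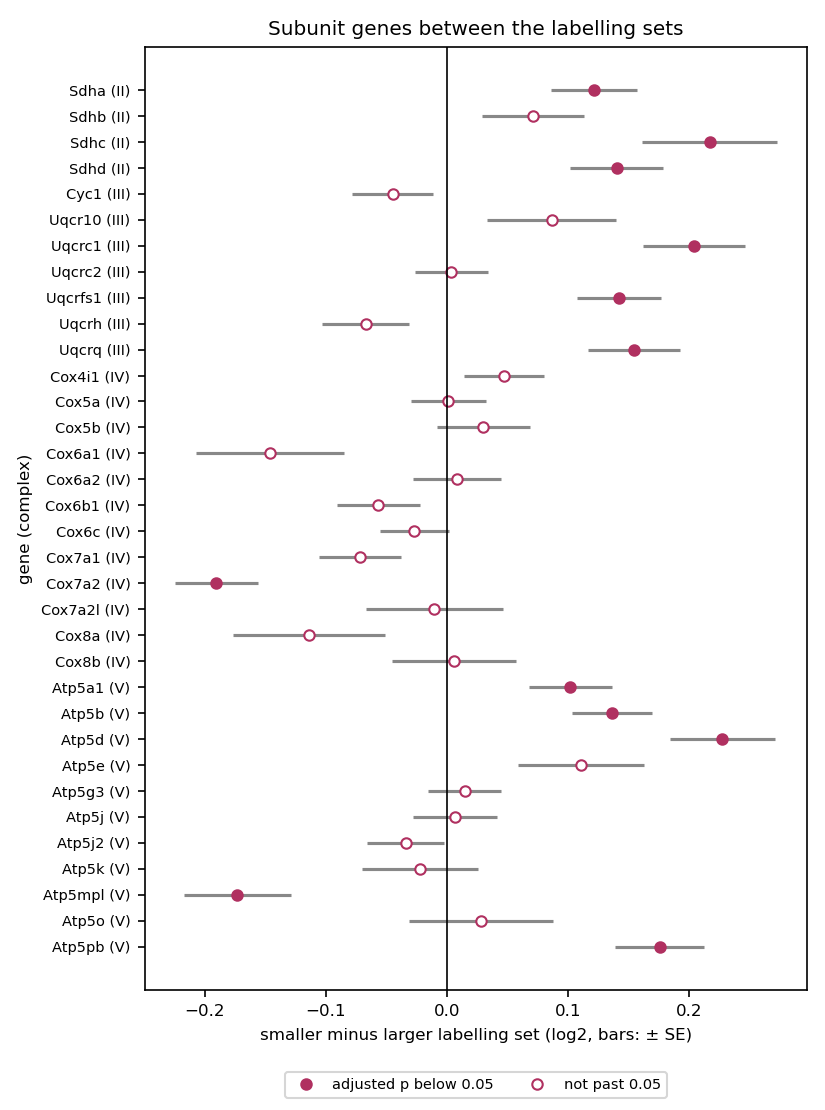
Difference of the 34 subunit genes above background between the smaller (9 arrays) and the larger (21 arrays) labelling set, in log2 with bars of ± SE from limma and filled points for an adjusted p below 0.05. Filled points lie to the right for most genes that passed, and to the left for Cox7a2 and Atp5mpl.

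Genes that feed or build the complexes were read for comparison, from lists drawn up with earlier results of these data known. Of 33 measured complex I subunits 1 passed: Ndufc1, a small accessory subunit, fell by 0.16 ± 0.04 with time (SE; limma adjusted p = 0.0379) and by 0.17 ± 0.04 in the combined comparison (limma adjusted p = 0.00976). The diet difference of smallest p was that of Ndufs4 (-0.11, limma adjusted p = 0.974). Of 15 measured genes of ubiquinone synthesis and other electron input, 1 passed: Etfdh, which passes electrons from fatty acid oxidation to ubiquinone, rose by 0.33 ± 0.06 in the combined comparison (limma adjusted p = 8.77e-04). Its diet difference was 0.18 ± 0.06 (limma adjusted p = 0.542), and Coq8a had the smallest p in time (0.19, adjusted p = 0.328).

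No gene passed in limma's test in the other lists. Among 28 assembly factors of complexes II to V, 6, 10 and 6 were higher in the diet, time and combined comparisons, where 51.5%, 50.4% and 51.1% of all entries were higher and 44.96%, 52.1% and 47.4% of those above background. Their medians were -0.04, -0.02 and -0.06. The smallest p-values were those of Cox15 (-0.09, adjusted p = 0.991), Sdhaf4 (-0.11, adjusted p = 0.414) and Uqcc3 (-0.22, adjusted p = 0.173). Among 14 genes of mitochondrial transcription and biogenesis they were those of Tfb1m (-0.23, adjusted p = 0.823), Pprc1 (0.22, adjusted p = 0.217) and Yy1 (0.14, adjusted p = 0.242). The 13 genes of the tricarboxylic acid cycle had medians of 0.0018, -0.01 and -0.01, with Suclg2 at 0.14 in time (adjusted p = 0.456) and 0.18 in the combined comparison (adjusted p = 0.195). The 8 genes of mitochondrial adenine nucleotide and phosphate transport and creatine kinase had medians of -0.01, 0.0025 and 0.0019. Ucp2, an uncoupling protein, differed by 0.43 ± 0.21 for diet (limma adjusted p = 0.978) and by -0.41 ± 0.21 for time (limma adjusted p = 0.529), and Vdac1 by 0.08 in the combined comparison (adjusted p = 0.581).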

How the data were processed

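Quadriceps RNA of 30 mice was hybridised to Affymetrix arrays after biotin labelling, per the labels. The deposited values are intensities on a linear scale, which the authors computed with GCRMA, per the submitters' processing notes; no other version or setting is given in the sources used here. Of 16539 rows, 64 control probe sets were left out. Row names hold an Entrez identifier, and 15780 of the 16475 tested entries had 1 symbol in the annotation table, of which none changed in RefSeq's gene table (16229 entries matched).

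Intensities were taken as log2 without a pseudocount and tested with limma 3.58.1 in R 4.3.3 (group only, all arrays in 1 fit, 27 residual degrees of freedom), with Benjamini-Hochberg adjustment over 16475 entries and a threshold of 0.05. Isoform ratios were compared by two-sided permutation tests of 100000 resamples with numpy 2.4.6, adjusted over 9 tests. Both were tested on simulated data. Promoters came from RefSeq GRCm38.p6. Array number and signal near background limit the precision. Replicate numbers recur in the groups, but each array is another mouse and same-numbered arrays did not deviate together, so arrays were not paired.

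Members and gene lists were chosen with earlier results of these data known. Named with values were the 2 members of smallest p in each complex and comparison, the isoform pairs, complex II, and from each list of related genes those past the threshold or else of smallest p, of which 1 is not reported here. Every other member was given by its medians or, below background, by its highest intensity. Cycs was counted with complex III in that rule. Pairs, promoters and labelling set genes beyond these were named after their values were seen. Alternatives were other normalizations, filters, pseudocounts, variance models, covariates, labelling sets and left-out arrays. Genes of these complexes without an entry of such a symbol were not analysed here.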

Additional observations from a re-analysis of the deposited data

Results flagged for a closer look

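In 132 groups of 10 arrays (the 40 genes, the 3 isoform ratios and the mean of the genes above background, each in 3 groups), 5 had an array whose distance to its nearest neighbour was large against the range of the group; chance gives about 1 in 20, which is 6.6 of 132. Replicate 2 of HF day 56 was the high array for Cox6a2, at 13.25 (log2) with the others from 12.93 to 13.08, and for Cox6b1, at 13.70 with the others from 13.34 to 13.52. In LF day 56, replicate 10 was low for Cox7a2, at 12.40 with the others from 12.66 to 12.85, and replicate 4 was high for Cyc1, at 12.72 with the others from 12.53 to 12.62. Replicate 6 of LF day 56 was high for Cox7b2, at 1.85 with the others from 1.07 to 1.43, all below the background mark.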

How the results depend on the processing

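The count of subunit genes past the threshold was 0 in all 111 fits of 3 comparisons, which covered 17 settings in all and the leaving out of each array. The lowest adjusted p any subunit gene reached was 0.078, for Cox7a1 in the time comparison with log2(intensity + 16). Of 833 values of named genes under an alternative, 11 changed sign, none of them a called difference, and 8 of these with the smaller labelling set only, which leaves 3 arrays a group. There the diet difference was 0.018 for Sdhc, -0.027 for Cox4i2, -0.026 for Cox8c, 0.060 for Atp5g1 and -0.10 for Atp5mpl, the time difference -0.0009 for Sdhc and -0.024 for Sdhd, and the combined difference 0.021 for Atp5g1. Leaving out each array in turn moved the combined difference of Sdhc between -0.021 and 0.055.

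The time difference of the Cox7a1 over Cox7a2 ratio was -0.12 with the neutrophil score as a covariate (adjusted p = 0.0848), and its adjusted p lay between 0.00153 and 0.0335 when each array was left out. For Cox6a2 over Cox6a1 the adipocyte score gave 0.024 for diet, 0.30 for time and 0.26 combined. Left-out arrays gave 0.17 to 0.25 for the time difference of that ratio, with a permutation adjusted p between 0.0099 and 0.173. For Cox8b over Cox8a the combined difference was -0.018 with quantile normalization, -0.028 with the adipocyte score and between -0.016 and 0.073 with left-out arrays. The covariates and the correlation settings were chosen after seeing the data, and the cause of these shifts was not tested.

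The replicate number as a block (replicate block) gave 0 subunit genes past the threshold in each comparison, and -0.15 with an adjusted p of 0.105 for the Cox7a1 over Cox7a2 ratio. Deviations of same-numbered arrays correlated between -0.53 and 0.57 over 30 pairs (median -0.10, 9 above 0.1), so the numbers do not pair the arrays. Signal near background limits what can be said of Cycs, Cox4i2, Cox6b2, Cox7b2, Cox8c and Atp5g1.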
